A study of Mus musculus with 6 samples.

Results

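Astrocyte and radial glia genes were examined in 6 bulk RNA-seq libraries of mouse brain tumors, as 37 listed genes of the 24537 rows in the count table. All 37 had a row. They were described as 25 genes of mature astrocytes and 12 genes of neural stem cells and radial glia, and 24 and 12 of these passed the filter on low counts, Gjb6 being the gene that failed. The tumors were made in CD-1 IGS mice by in utero electroporation, a method that carries plasmid DNA into progenitors lining the embryonic ventricles. All 6 carried the receptor mutant titled PdgfraD482V together with DNp53, a dominant-negative p53. Per the titles, 3 carried FOXR2, a forkhead transcription factor, as well, and 3 were controls without it. Neither the age of the mice nor the promoter of the constructs is given in the labels, and they leave unsaid whether each library is a different mouse. Read from Xist and Y-linked genes, replicates 1, 2 and 3 titled FOXR2 were male, female and male, and those titled Control male, female and female, so each group held at least 2 animals. The p-values therefore reflect how much these libraries vary, and part of that variation may be technical.

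The titles and the deposited sample sheet contradict each other on the group of 6 of 6 libraries. The libraries are therefore called "titled FOXR2" and "titled Control", and every direction given here turns round if the sheet is right. Foxr2 itself had 22, 1 and 7 counts in replicates 1, 2 and 3 titled FOXR2 and 4, 10 and 7 among those titled Control, so the groups overlapped and the transcript did not decide between title and sheet. Depth ran from 13429489 to 17927025 counts per library, and the floor of 3 counts equalled 0.174 to 0.219 CPM. CPM are counts relative to library size, scaled by TMM, a correction for library composition. Intervals and floors of this kind cover counting error only. Titled FOXR2 replicate 2 stood apart by its immune RNA: 17 microglia and macrophage markers summed to 1692 CPM there and to 43.5 to 66.6 CPM in the other libraries. It also held 398 counts of the oligodendrocyte gene Mog and 201 of the fibroblast gene Col1a2, against 0 to 4 and 0 to 3 elsewhere. Summed oligodendrocyte markers were high there and in titled Control replicate 3 (5923 and 4447 CPM). Results that rest on titled FOXR2 replicate 2 are given with and without it.

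Radial glia are the stem cells of the developing brain. They line the ventricles, hold Fabp7, Nes and Vim, give rise to neurons and later to glia, and in part turn into astrocytes. Astrocytes take up glutamate and potassium, couple to each other through gap junctions, cover blood vessels with endfeet and secrete lipoproteins and synapse-organizing proteins. Many genes of the astrocyte list, such as Slc1a3, Aldoc and Ttyh1, are already active in radial glia, and gliomas hold mixtures of both programs. In bulk tumor RNA, fewer cells of a type and less RNA per cell cannot be told apart.

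The sequences before the annotated start of 4 members are shown because the results turn on these genes. They are Slc1a2, the member that edgeR called between the groups, and Hepacam and Aldh1l1, called in opposite directions once titled FOXR2 replicate 2 was left out. The last is Gfap, the classical astrocyte marker that was highest in that library. Each is the 250 bases before the start, 5′ to 3′ on the gene's strand, from RefSeq on GRCm38.p6. Capitals mark a match to TTGGCA, the half-site of the nuclear factor I (NFI) family.
Slc1a2 (chr2:102706188-102706437, plus strand): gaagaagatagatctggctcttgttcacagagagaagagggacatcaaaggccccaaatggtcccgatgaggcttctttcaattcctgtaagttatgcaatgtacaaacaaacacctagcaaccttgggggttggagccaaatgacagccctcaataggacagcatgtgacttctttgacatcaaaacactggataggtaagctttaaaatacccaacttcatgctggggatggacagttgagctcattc
Hepacam (chr9:37367356-37367605, plus strand): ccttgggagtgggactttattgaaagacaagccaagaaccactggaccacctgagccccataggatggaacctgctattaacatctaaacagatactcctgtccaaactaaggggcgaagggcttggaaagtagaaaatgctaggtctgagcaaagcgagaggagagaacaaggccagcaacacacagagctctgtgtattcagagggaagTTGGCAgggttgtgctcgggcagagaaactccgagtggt
Aldh1l1 (chr6:90550543-90550792, plus strand): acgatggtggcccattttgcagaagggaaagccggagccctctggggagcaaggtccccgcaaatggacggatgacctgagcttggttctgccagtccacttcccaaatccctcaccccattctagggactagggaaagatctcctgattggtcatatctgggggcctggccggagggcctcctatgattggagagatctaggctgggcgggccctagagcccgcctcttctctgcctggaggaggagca
Gfap (chr11:102897201-102897450, minus strand): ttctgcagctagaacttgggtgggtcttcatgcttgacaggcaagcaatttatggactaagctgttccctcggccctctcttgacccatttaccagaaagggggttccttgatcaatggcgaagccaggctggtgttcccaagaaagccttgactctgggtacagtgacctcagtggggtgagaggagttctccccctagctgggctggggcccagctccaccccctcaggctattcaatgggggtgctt
Of the members, 33 symbols matched the RefSeq table, with 41 such regions. Both strands were searched for TTGGCA, for the full NFI palindrome, which overlaps the half-site in its first 5 letters, for the forkhead core TGTTTAC, for the ETS core CCGGAAG and for the STAT motif TTCCNGGAA. The half-site was found in 4 member regions (9.76%, against 12.3% of all 32851 regions), those of Aldoc, Apoe, Hepacam and S100b. The palindrome was in 0 (0.0365% of all regions), the forkhead core in 1 (2.44% against 3.17%), the ETS core in 1 (2.44% against 6.91%) and the STAT motif in 2 (4.88% against 0.913%). A match describes letters in this window and does not show a bound site.

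Levels were first set side by side per kilobase of annotated exon, as means over all 6 libraries. The stem cell genes Fabp7, a brain fatty acid binding protein, and Vim, an intermediate filament of radial glia and reactive astrocytes, led the list at 939.9 ± 314 and 892 ± 319.9 CPM per kb (SD, n = 6), and these did not differ beyond their spread. Cst3, a secreted protease inhibitor, followed at 370.2 ± 169.8 and Aldoc, the brain form of aldolase, at 143 ± 124 CPM per kb. Classical astrocyte markers were spread over the order. Glul averaged 93.9 ± 51.5, Slc1a3 59.5 ± 32.7 and S100b 44.2 ± 34.5 CPM per kb. Mlc1 and Aldh1l1 lay mid-list at 16.7 and 16.6 CPM per kb and Hepacam at 12.6. Gfap, the astrocyte intermediate filament, averaged 5.67 ± 5.83 CPM per kb, and the water channel of the endfeet, Aqp4, 0.315 ± 0.246. The gap junction genes Gja1 and Gjb6 averaged 0.593 ± 0.625 and 0.0292 ± 0.048 CPM per kb. Among stem cell genes, the surface protein gene Prom1 (0.411 ± 0.283) and the homeobox gene Pax6 (0.574 ± 0.522) were as low on this scale. Gjb6 was near the floor, with 2, 0 and 0 counts under the FOXR2 title and 0, 4 and 0 under the Control title, where a count of 0 allows up to 0.219 CPM.

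Transmitter uptake genes held the single member that edgeR called between the groups. Slc1a2, the main astrocytic glutamate transporter of the forebrain, stood at 73.9, 76.1 and 96.9 CPM in replicates 1, 2 and 3 titled FOXR2 and at 19.5, 22.2 and 32.3 CPM among those titled Control. The groups did not overlap, and each group was tight. Its log2 fold change, titled FOXR2 minus titled Control, was 1.74 ± 0.25 (SE; edgeR quasi-likelihood test, adjusted p = 0.0379 over 13101 genes). The size changed little when a library was left out, between 1.59 and 1.97, but the call was lost without titled FOXR2 replicate 1 or 3 or any library titled Control (edgeR adjusted p = 0.058, 0.123, 0.116, 0.158 and 0.0581). A covariate for the sex of the animal also ended it (adjusted p = 0.115). Slc1a2 shares up to 166 exon bases with an antisense transcript, and whether counting used strand is not given in the sources used here.

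Slc1a3, the glutamate transporter of radial glia and of cerebellar astrocytes, was more abundant and less even. It stood at 433, 179 and 449 CPM in the libraries titled FOXR2 and at 199, 209 and 103 CPM among those titled Control, so that titled FOXR2 replicate 2 lay inside the Control range (log2 fold change 1.06 ± 0.41, edgeR adjusted p = 0.175). Slc6a11, a GABA transporter, had the largest fitted difference of the members, but its spread followed 1 library. Its levels were 17.0, 20.6 and 118 CPM in the libraries titled FOXR2 against 3.66, 5.78 and 12.1 CPM among those titled Control (log2 difference 2.85 ± 0.85, edgeR adjusted p = 0.106), and without titled FOXR2 replicate 3 the difference was 1.38 on the log2 scale. Glul, the glutamine synthetase that closes the glutamate cycle, had the same high library: 211, 235 and 545 CPM in those titled FOXR2 and 196, 137 and 249 CPM among those titled Control (adjusted p = 0.288). All 4 uptake genes were fitted above 0, and Slc1a2 was the one that passed the edgeR test. DESeq2 called Slc6a11 as well (adjusted p = 0.00179).

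Endfoot and junction genes split. Hepacam, an adhesion molecule that anchors the chloride channel complex of astrocytes, stood at 61.9, 34.5 and 104 CPM in the libraries titled FOXR2 and at 23.9, 16.1 and 12.7 CPM among those titled Control. These groups did not overlap, and the difference narrowly missed the threshold (log2 fold change 1.93 ± 0.43, edgeR adjusted p = 0.0615). Mlc1, the membrane partner of Hepacam, stood at 83.3, 15.1 and 114 CPM against 27.2, 20.9 and 19.0 CPM, so titled FOXR2 replicate 2 was the lowest of all 6 libraries (log2 fold change 1.67 ± 0.63, adjusted p = 0.164). Slc4a4, a sodium bicarbonate cotransporter, had the same order within the libraries titled FOXR2, at 29.8, 7.59 and 53.2 CPM, against 18.3, 8.88 and 11.6 CPM (adjusted p = 0.282). The remaining genes of this role were scarce. Aqp4 lay at 0.365 to 2.21 CPM in the libraries titled FOXR2 and 0.536 to 4.38 among those titled Control (adjusted p = 0.781). Gja1, connexin 43, had 7, 29 and 2 counts against 26, 101 and 34, with overlapping groups (log2 fold change -1.95 ± 0.93, adjusted p = 0.246).

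**Figure D1:**
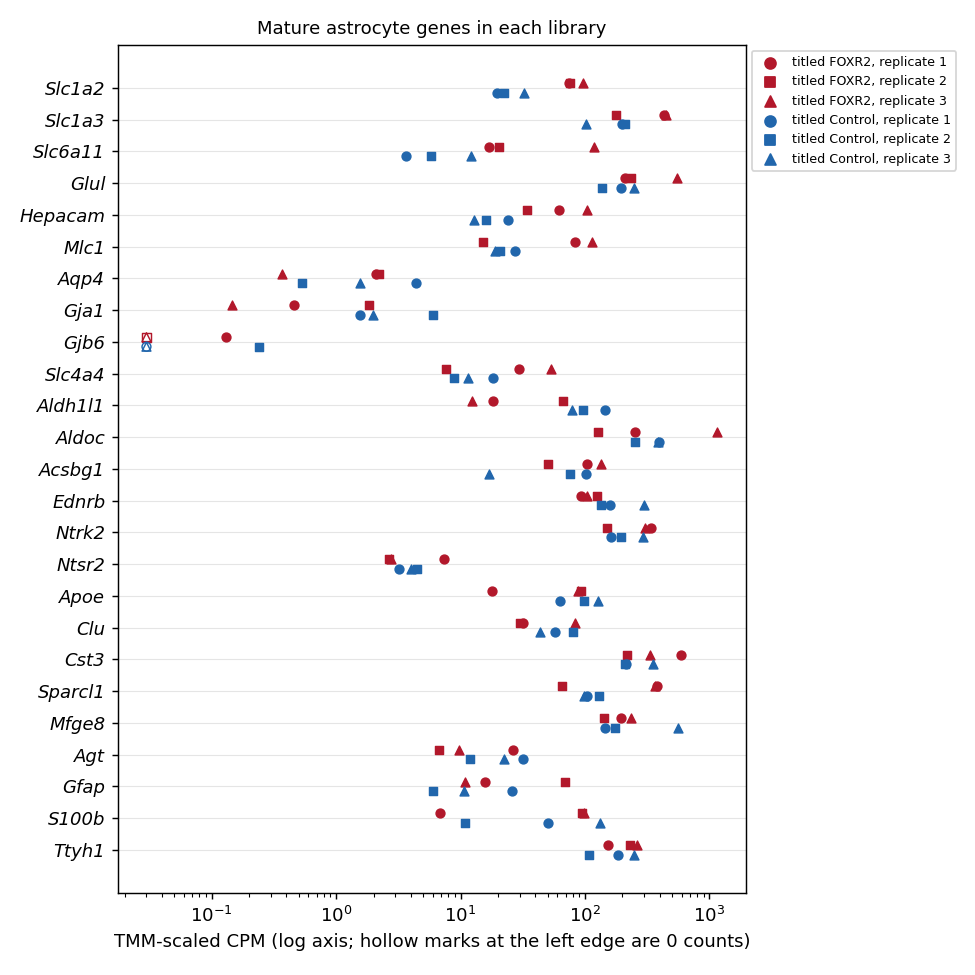
Levels of the 25 mature astrocyte genes in each library, as TMM-scaled CPM on a log axis; each mark is 1 library, red for titled FOXR2 and blue for titled Control, with the shape giving the replicate. Slc1a2 is separated without overlap, while Mlc1, Sparcl1 and Slc4a4 have titled FOXR2 replicate 2 (red square) below the libraries titled Control, and Gjb6 had 0 counts in 4 libraries.

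Metabolic genes did not share a direction. Aldh1l1, a folate enzyme used to mark astrocytes, stood at 18.2, 66.7 and 12.5 CPM in the libraries titled FOXR2 and at 145, 95.7 and 78.4 CPM among those titled Control. Every library titled FOXR2 lay below every library titled Control, with replicate 2 nearest to them (log2 fold change -1.71 ± 0.62, edgeR adjusted p = 0.15). This is the opposite side from Slc1a2, another pan-astrocyte gene. Aldh1l1 shares up to 332 exon bases with an antisense transcript. Aldoc stood at 251, 127 and 1150 CPM against 390, 253 and 383 CPM, and its direction rested on titled FOXR2 replicate 3 (log2 fold change 0.57 with all libraries and -0.86 without that one; adjusted p = 0.665 and 0.276). Acsbg1, an acyl-CoA synthetase of glia, overlapped between groups at 50.4 to 133 and 17.0 to 102 CPM (adjusted p = 0.615).

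Receptor genes overlapped or missed the threshold. Ednrb, the endothelin receptor of reactive astrocytes and glial progenitors, stood at 93.4, 126 and 104 CPM in the libraries titled FOXR2 and at 160, 134 and 298 CPM among those titled Control, without overlap (log2 fold change -0.88 ± 0.32, edgeR adjusted p = 0.152). Ntrk2, the BDNF receptor gene whose truncated form is common in astrocytes, ranged from 151 to 339 and from 162 to 290 CPM (adjusted p = 0.643). Ntsr2, a neurotensin receptor of mature astrocytes, was low in both groups, at 2.66 to 7.31 and 3.18 to 4.47 CPM (adjusted p = 0.896).

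Secreted proteins varied more within than between groups. Sparcl1, a synapse-organizing matrix protein, stood at 378, 65.7 and 364 CPM in the libraries titled FOXR2 and at 105, 129 and 98.4 CPM among those titled Control. Its group titled FOXR2 was split, with replicates 1 and 3 high and replicate 2 lowest of all (log2 fold change 1.28 ± 0.58, edgeR adjusted p = 0.22). Mfge8, a bridging protein for phagocytosis, was high in 1 library titled Control, at 144, 174 and 556 CPM against 194, 143 and 234 CPM in those titled FOXR2 (adjusted p = 0.499). Its log2 fold change was -0.61 with all libraries and 0.26 without titled Control replicate 3. Apoe, the main apolipoprotein of the brain and also a product of microglia, stood at 18.0, 92.4 and 87.7 CPM against 62.4, 97.6 and 127 CPM (adjusted p = 0.602). Summed microglia and macrophage markers stood at 55.2, 1692 and 59.3 CPM in the libraries titled FOXR2. The part of those cells in Apoe was not tested. Cst3, Clu, a secreted chaperone, and Agt, angiotensinogen, overlapped between groups (adjusted p = 0.424, 0.682 and 0.536).

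Gfap and S100b followed the libraries rather than the titles, and Ttyh1 varied less. Gfap stood at 15.6, 69.5 and 10.9 CPM in the libraries titled FOXR2 and at 25.9, 5.96 and 10.7 CPM among those titled Control (log2 difference 1.17 ± 0.80, edgeR adjusted p = 0.406). Titled FOXR2 replicate 2 was the highest, and without it the difference was -0.10 ± 0.60. S100b, a calcium-binding protein of astrocytes and of the oligodendrocyte lineage, differed 19.5 times between its highest and lowest library, at 6.79, 95.0 and 97.8 CPM against 50.2, 10.9 and 133 CPM (log2 fold change 0.04 ± 1.04, adjusted p = 0.985). The 14 mature oligodendrocyte markers summed to 337, 5923 and 1657 CPM in the libraries titled FOXR2 and to 2033, 394 and 4447 CPM among those titled Control. The same libraries, titled FOXR2 replicate 1 and titled Control replicate 2, were lowest in S100b and in these markers, and the part of oligodendrocyte RNA in S100b was not tested. Ttyh1, a membrane protein of radial glia and astrocytes, was even, at 152 to 263 and 107 to 246 CPM (adjusted p = 0.674).

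**Figure D2:**
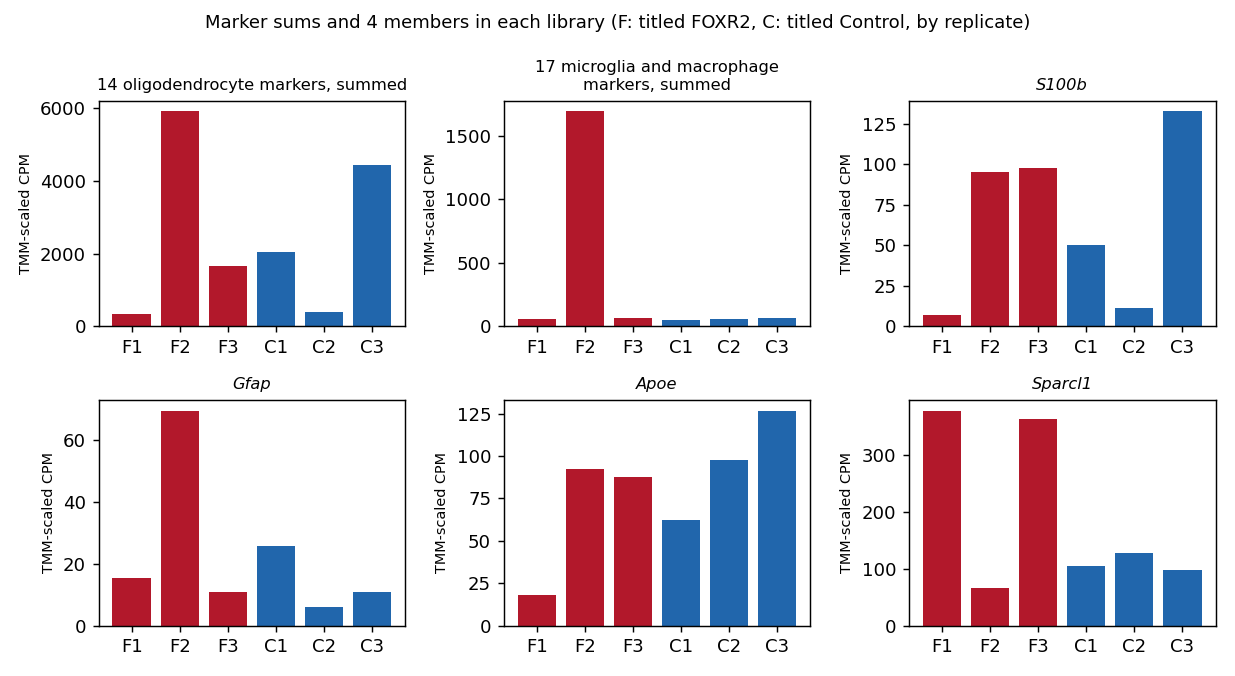
Summed levels of oligodendrocyte and of microglia and macrophage markers and the levels of S100b, Gfap, Apoe and Sparcl1, as TMM-scaled CPM per library (bars; 1 library each, red for titled FOXR2, blue for titled Control). Titled FOXR2 replicate 2 (F2) holds 1692 CPM of microglia and macrophage markers, the highest Gfap (69.5) and the lowest Sparcl1 (65.7), while S100b is lowest where oligodendrocyte markers are lowest (F1 and C2).

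As a list, the mature astrocyte genes were mixed. Of 24 tested, 16 were fitted above 0 and 8 below. Their median log2 fold change was 0.42, beside 0.01 over all 13101 genes tested. By edgeR 1 was called higher (background 0.908% of all genes) and 0 lower (background 1.38%). At an unadjusted p under 0.05 there were 5 higher and 2 lower, beside 11.9% and 13.0% of all genes. DESeq2 called 4 higher and 1 lower (backgrounds 6.91% and 6.91%), and limma-voom 1 and 0 (backgrounds 0.649% and 1.21%). The members that DESeq2 called were Slc1a2, Slc6a11, Hepacam and Mlc1, higher, and Aldh1l1, lower. The groups did not overlap in 3 members above (12.5%; background 13.1%) and 2 below (8.33%; background 17.2%), shares no larger than those of all genes. Over all alternatives the median ran from 0.19, without titled FOXR2 replicate 3, to 0.62, without titled Control replicate 3, and it was 0.20 with a sex covariate and 0.28 with limma-voom.

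The calls changed when titled FOXR2 replicate 2 was left out. It held the lowest level of 9 of the 24 members with a count in every library, and titled FOXR2 replicate 3 the highest level of 11. Without titled FOXR2 replicate 2, edgeR called 4 mature astrocyte genes higher and 1 lower (backgrounds in that fit 0.925% and 0.616% of 13303 genes). Those higher were Slc1a2 (1.79 ± 0.28, adjusted p = 0.0453), Hepacam (2.24 ± 0.35, adjusted p = 0.0447), Mlc1 (2.14 ± 0.26, adjusted p = 0.035) and Sparcl1 (1.75 ± 0.21, adjusted p = 0.035), on the log2 scale. Aldh1l1 was the one called lower, at -2.79 ± 0.36 (edgeR adjusted p = 0.0353). Slc1a3 and Slc4a4 came nearer to the threshold (adjusted p = 0.0798 and 0.0792). The 2 libraries titled FOXR2 that remain both read as male, against 1 male and 2 females titled Control, so this fit also shifts the balance of sexes. With all 6 libraries and a sex covariate, the log2 fold change of Mlc1 was 0.74, that of Sparcl1 0.52, that of Slc4a4 0.39 and that of Slc1a3 0.67 (edgeR adjusted p = 0.54, 0.718, 0.72 and 0.397). Slc1a2, Hepacam and Aldh1l1 were at 1.80, 1.53 and -1.80 in that fit (edgeR adjusted p = 0.115, 0.122 and 0.207). Without the covariate these 3 were at 1.74, 1.93 and -1.71.

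**Figure D3:**
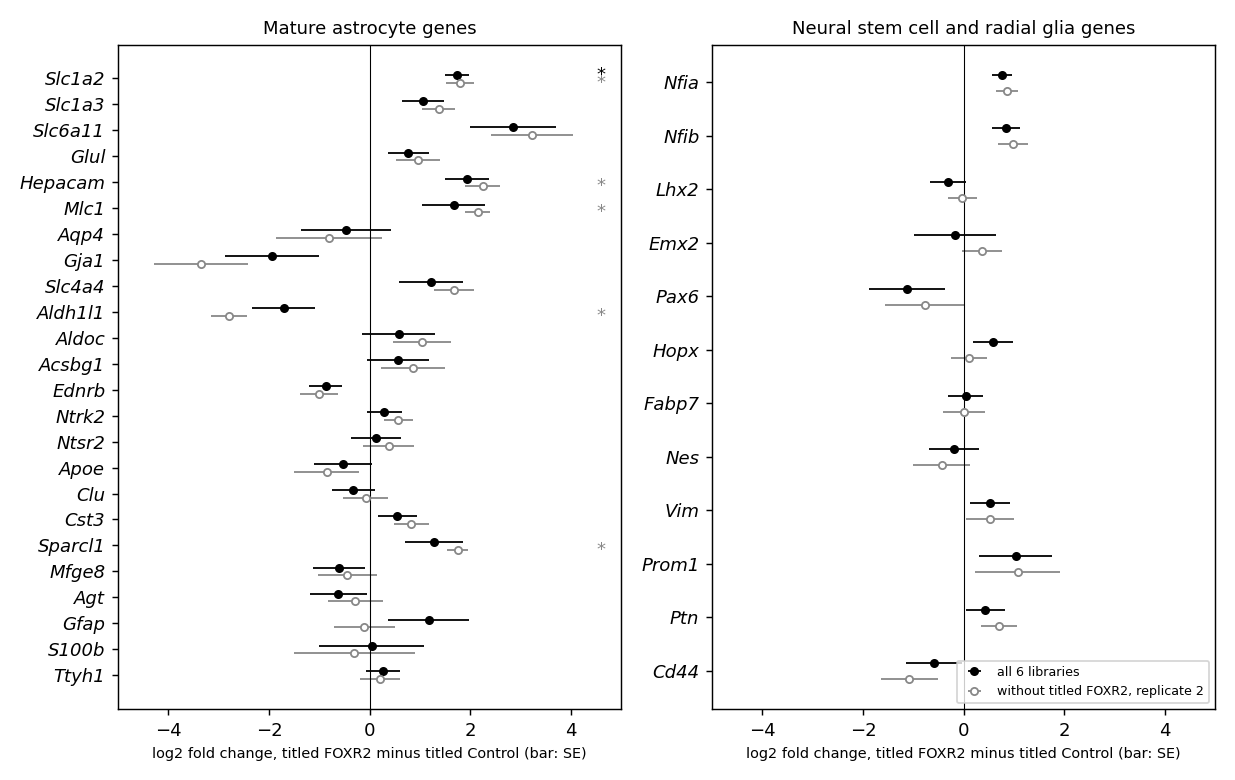
Log2 fold changes of the 36 tested members, titled FOXR2 minus titled Control, with all 6 libraries (filled) and without titled FOXR2 replicate 2 (hollow); bars give the SE and an asterisk an edgeR adjusted p under 0.05 in the fit of its shade. Slc1a2 is called in both fits, and Hepacam, Mlc1, Sparcl1 and Aldh1l1 in the smaller fit.

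Among the 12 neural stem cell and radial glia genes, transcription factors of the NFI family differed most evenly. Nfia, which starts gliogenesis in radial glia, stood at 186, 138 and 161 CPM in the libraries titled FOXR2 and at 111, 84.7 and 91.0 CPM among those titled Control. Nfib, which acts with it, stood at 155, 120 and 180 CPM against 97.9, 101 and 55.9 CPM. Neither pair of groups overlapped, and neither difference passed the edgeR test (log2 fold changes 0.76 ± 0.20 and 0.84 ± 0.28, adjusted p = 0.0795 and 0.128). DESeq2 called Nfia (adjusted p = 0.0131) and not Nfib (0.0584). Both stayed above 0 with each library left out, between 0.65 and 0.88 and between 0.61 and 0.99. Nfix, of the same family, stood at 440, 189 and 629 CPM against 123, 115 and 132 CPM (log2 fold change 1.77 ± 0.40, edgeR adjusted p = 0.0649; 0.0328 without titled FOXR2 replicate 2). Nfic, the fourth member, overlapped at 72.1, 116 and 120 CPM against 104, 105 and 88.5 CPM (0.04 ± 0.23, adjusted p = 0.923). Nfic was added after its values were seen, to complete the family.

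The dorsal patterning factors of the early cortex were low and overlapped. Lhx2, which keeps cortical progenitors undifferentiated, ranged from 10.9 to 28.5 CPM in the libraries titled FOXR2 and from 19.4 to 27.6 among those titled Control (adjusted p = 0.634). Emx2, a cortical homeobox gene, stood at 11.4, 0.696 and 7.37 CPM against 5.88, 9.89 and 6.10 CPM, so that titled FOXR2 replicate 2 lay apart from the other 5 libraries (adjusted p = 0.918). The log2 fold change of Emx2 was -0.17 with all libraries and 0.36 without that one. Emx2 shares up to 264 exon bases with its antisense transcript Emx2os, which averaged 1.45 CPM. Pax6, a regulator of cortical radial glia, was highest in 1 library titled Control, at 3.36, 11.0 and 1.92 CPM against 3.91, 1.14 and 2.41 CPM (log2 fold change -1.13 ± 0.75, adjusted p = 0.394). Hopx, a marker of outer radial glia and quiescent stem cells, stood at 5.09, 12.1 and 6.20 CPM against 5.04, 5.24 and 5.46 CPM, where titled FOXR2 replicate 2 was the high library (adjusted p = 0.415). The log2 fold change of Hopx was 0.57 with all libraries and 0.10 without that one.

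The filament and lipid-binding genes of stem cells were abundant in both groups, the surface gene Prom1 was scarce, and all overlapped between groups. Fabp7 stood at 998, 1236 and 1333 CPM in the libraries titled FOXR2 and at 1849, 812 and 820 CPM among those titled Control (log2 difference 0.04 ± 0.35, edgeR adjusted p = 0.961). Nes, the stem cell intermediate filament nestin, stood at 608, 723 and 324 CPM against 873, 787 and 236 CPM (adjusted p = 0.838), with replicate 3 lowest under either title. Vim was nearly the same in the 3 libraries titled FOXR2, at 2361, 2295 and 2259 CPM, and spread widely among those titled Control, at 2596, 1464 and 757 CPM (0.52 ± 0.40, adjusted p = 0.464). Titled Control replicate 3 was lowest in Nes, Vim and Prom1 and highest in Cd44, a hyaluronan receptor of astrocyte precursors and mesenchymal-type glioma cells, at 106 CPM beside 30.6 and 52.2 in the others of its title and 19.8, 65.8 and 39.8 in those titled FOXR2 (adjusted p = 0.541). The same library had the highest Mfge8, Ednrb, S100b and Apoe. Ptn, a secreted growth factor of radial glia, was high in titled FOXR2 replicate 3, at 639 CPM beside 290 and 225, and at 332, 271 and 255 CPM in the libraries titled Control (adjusted p = 0.53). Prom1 ranged from 1.24 to 4.31 and from 0.407 to 2.34 CPM (adjusted p = 0.424). Like Slc1a2, Aldh1l1 and Emx2, the genes Hopx, Prom1, Ttyh1 and Glul share exon bases with another annotated gene, so their counts are uncertain to that extent.

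**Figure D4:**
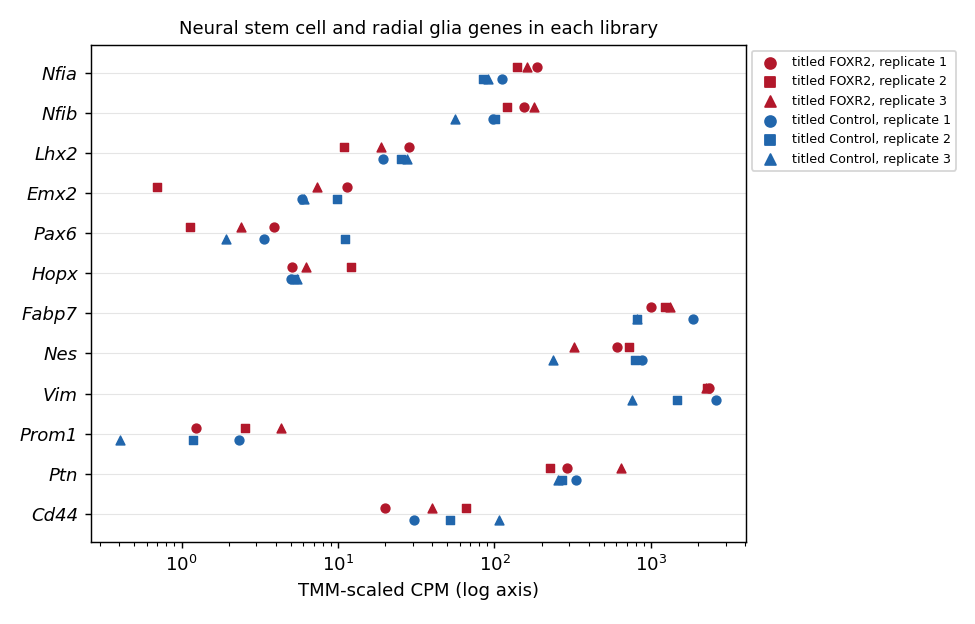
Levels of the 12 neural stem cell and radial glia genes in each library, as TMM-scaled CPM on a log axis; each mark is 1 library, red for titled FOXR2 and blue for titled Control. Nfia and Nfib are separated without overlap, Vim is tight at 2259 to 2361 CPM in the libraries titled FOXR2, and Emx2 is low in replicate 2 of that title (0.696).

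As a list, 7 of the 12 stem cell genes were fitted above 0 and 5 below (median log2 fold change 0.23). By edgeR 0 were called in either direction, with 2 higher and 0 lower at an unadjusted p under 0.05 (backgrounds 11.9% and 13.0%). DESeq2 called 1 higher and 0 lower (backgrounds 6.91% each), and limma-voom 0 and 0. The groups did not overlap in 2 members above (16.7%, near the 13.1% of all genes) and 0 below (background 17.2%). The median was 0.54 without titled Control replicate 1, 0.33 without titled FOXR2 replicate 1, 0.09 without titled Control replicate 3, 0.01 without titled FOXR2 replicate 3 and 0.05 with a sex covariate.

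Other glial genes from 4 further lists gave 1 call by edgeR among 102 tested of 118, about the 0.908% of all genes called higher. The counts in each list stand beside the same backgrounds as above: 11.9% higher and 13.0% lower at an unadjusted p under 0.05, and 6.91% in each direction by DESeq2. Of 34 tested astrocyte genes outside the members, 0 were called by edgeR, 10 were higher and 0 lower at an unadjusted p under 0.05, DESeq2 called 5 higher and 1 lower, limma-voom 0 and 0, and the median log2 fold change was 0.64. Those with the smallest p were Cspg5, a neural proteoglycan, at 541, 441 and 403 CPM against 265, 292 and 318 CPM (0.66 ± 0.19, edgeR adjusted p = 0.0952), and Pygb, the brain glycogen phosphorylase, at 0.82 ± 0.24 (adjusted p = 0.097).

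Of 27 tested radial glia genes outside the members, 0 were called by edgeR, 5 were higher and 0 lower at an unadjusted p under 0.05, DESeq2 called 3 higher and 0 lower, limma-voom 0 and 0, and 23 were fitted above 0 with a median of 0.49. Ptprz1, a receptor phosphatase that binds Ptn, stood at 1490.4, 1272 and 1501 CPM against 856, 679.7 and 579 CPM (1.01 ± 0.21, edgeR adjusted p = 0.0536). The receptor gene Notch1, which keeps radial glia in the stem cell state, stood at 288, 206 and 266 CPM in the libraries titled FOXR2 and at 130, 140 and 137 CPM among those titled Control (0.90 ± 0.19, adjusted p = 0.0552). Both had groups without overlap.

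Of 16 glial fate transcription factors, 0 were called by edgeR, 7 were higher and 0 lower at an unadjusted p under 0.05, and DESeq2 called 5 higher and 0 lower and limma-voom 0 and 0. The groups did not overlap in 6 of them, all above (37.5%, beside 13.1% of all genes), and the median was 0.56. Beside Nfix these included Id4, an inhibitor of neural differentiation, at 10.9, 5.06 and 5.91 CPM against 2.40, 1.25 and 2.38 CPM (1.85 ± 0.47, edgeR adjusted p = 0.0775), and Tcf4, a partner of proneural factors, at 0.82 ± 0.24 (adjusted p = 0.102).

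Of 25 tested genes of reactive astrocytes, B3gnt5, a glycolipid enzyme also listed among genes that astrocytes induce after ischemia, was called higher, at 92.1, 92.9 and 94.4 CPM against 3.66, 2.74 and 4.01 CPM (log2 fold change 4.74 ± 0.22, edgeR adjusted p = 0.000904). Earlier results of these data had already singled it out. It was the only call of the reactive list by edgeR and by limma-voom, while DESeq2 called 4 higher and 1 lower, and 6 were higher and 2 lower at an unadjusted p under 0.05. The list's summed level was 749, 3023 and 1967 CPM in the libraries titled FOXR2 and 887, 539 and 794 CPM among those titled Control. Gbp2, Psmb8 and Iigp1 were its most abundant genes. The sum was highest in the library with the most microglia and macrophage RNA. It was next highest in titled FOXR2 replicate 3, where microglia and macrophage markers summed to 59.3 CPM. The part of microglia and macrophages in the list's level was not tested. Without titled FOXR2 replicate 2 the median of the reactive list was -0.23, against 0.37 with it.

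Markers of other cell types were found at different levels. Endothelial and pericyte markers (14 genes) summed to 29.9 to 59.5 CPM in the libraries titled FOXR2 and 21.3 to 30.6 among those titled Control. Their most abundant genes were Notch3, Ly6c1 and Flt1, while Pecam1 and Cdh5 reached at most 2.02 and 1.52 CPM. Meningeal and fibroblast markers (8 genes) summed to 2.54 to 50.2 and 1.80 to 23.6 CPM, with the 50.2 CPM in titled FOXR2 replicate 2. Igf2 gave 22.4 of the 23.6 CPM, in titled Control replicate 3. Ependymal and choroid plexus markers (12 genes), whose cells share Aqp4 and S100b with astrocytes, summed to 16.5 to 41.2 CPM against 1.97 to 3.83 without overlap. Aqp1 gave 13.8, 4.75 and 35.8 CPM of the former and 1.44, 0.358 and 2.32 CPM of the latter. Foxj1, which defines ependymal cells, overlapped between groups, at 1.76, 4.37 and 4.38 CPM against 1.80, 0.834 and 0.929 CPM. Other ependymal genes of the list were near the floor: Ccdc153, Tmem212, Dynlrb2 and Pifo had 0 to 4 counts in each library, and Rarres2 at most 8. In titled FOXR2 replicate 2, Ttr and Clic6 of this list gave 9.43 and 3.73 CPM (149 and 59 counts). Each of them had 0 to 2 counts in the other libraries. Markers of immature and mature neurons (13 genes) summed to 694 to 797 against 298 to 415 CPM, without overlap. Sox11, Dcx and Tubb3 were the most abundant of them. Sox11, Dcx, Syt1, Syn1, Snap25 and Rbfox3 were higher under the FOXR2 title without overlap. Tubb3 overlapped, at 53.4, 160 and 143 against 55.0, 36.7 and 38.3 CPM, as did Stmn2, Slc17a7, Gad1 and Gad2. Nefm went the other way, at 22.0, 41.0 and 9.56 CPM against 61.0, 70.9 and 110 CPM, as did Nefl. Markers of oligodendrocyte precursors (13 genes), the lineage that Pdgfra marks, summed to 4129 to 5751 against 2951 to 4011 CPM, also without overlap. Olig1, Cspg4 and Ccnd1 led that list. Of the 13 genes, Ccnd1 alone separated the groups, at 1000, 723 and 811 against 521, 587 and 222 CPM. Olig1 overlapped, at 1207, 1110 and 1438 against 1266, 544 and 568 CPM. Cspg4 did too, at 1398, 362 and 743 against 374, 572 and 583 CPM, as did Olig2, Sox10, Gpr17 and C1ql1. Aif1, a defining microglial gene, had 0 to 3 counts in the libraries other than titled FOXR2 replicate 2, where it had 574. The part of these cell types in the differences of astrocyte and stem cell genes was not tested.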

How the data were processed

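The authors' deposited table holds whole-number read counts per gene symbol for 6 poly(A)-selected RNA libraries. Per the submitters' processing notes, TopHat and DESeq2 were used (no version stated), with hg19, which is human while the gene symbols are those of mouse. Counting tool, annotation and strand use: not given in the sources used here. Another 23 rows hold dates in place of symbols.

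From the deposited counts, filterByExpr (count minimum 10) left 13101 genes for edgeR 4.0.16 (R 4.3.3). TMM factors were used, and the quasi-likelihood F test compared 3 libraries titled FOXR2 with 3 titled Control with no covariate. Benjamini-Hochberg adjustment ran over all genes tested, and an adjusted p under 0.05 was a call. Log2 fold changes carry a small prior count and standard errors. CPM are TMM-scaled. Exon length is the union of GENCODE M21 basic exons per symbol. The edgeR test was tested on simulated data. Alternatives were DESeq2 1.42.0, limma-voom (limma 3.58.1), RLE factors, total-count scaling, no filter, the replicate number as a block, animal sex (read from Xist and Y-linked genes) and each library left out.

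The members and lists were chosen with earlier results of these data known. All 37 members are named. From each of the 4 lists of other glial genes, called genes are named, or else the 3 with the smallest p, of which some are not reported here. Other cell types are given as summed levels with some of their genes. Nfic and the single genes named for other cell types were picked after their values were seen.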

Additional observations from a re-analysis of the deposited data

How the results depend on the processing

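The number of genes called in the whole table, 119 higher and 181 lower, depended on the fit. It was 947 and 947 with DESeq2, 7 and 0 with animal sex as a covariate, and 0 and 0 with the replicate block. At an unadjusted p under 0.05 the last 2 fits held 1127 and 1271, and 1218 and 1434. With total-count scaling 119 were called lower. With each library left out in turn, 1 to 123 were called higher and 0 to 82 lower. Of the mature astrocyte genes, 4 were called higher and 1 lower with DESeq2, 0 higher with the sex covariate and 0 with the replicate block, which gave Slc1a2 an adjusted p of 0.114. Without 1 library 0 to 4 were called higher and 0 to 1 lower. Of the stem cell genes DESeq2 called 1 higher, and the median ranged from 0.0073 to 0.54 without 1 library. Of the other glial genes DESeq2 called 17 higher and 2 lower, the replicate block 0, where B3gnt5 had an adjusted p of 0.0533, and the fits without 1 library 1 to 2, with medians from 0.41 to 0.51, and 0.40 with the sex covariate, against 0.50. Whether the numbers in the titles pair the libraries is not known. Deviations from the group means correlated by -0.0064, -0.23 and -0.0086 for replicates 1, 2 and 3, so no matching by number was seen. Centering within groups of 3 ties these values to each other, so they cannot decide whether libraries shared a litter or day.

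Some members that were not called changed sign. Aldoc was at -0.053 with the replicate block, -0.24 with the sex covariate and -0.014 with limma-voom, S100b at -0.17 with the block and -0.081 with limma-voom, Ntsr2 at -0.035 and -0.018, and Fabp7 at -0.034 with the sex covariate. Without 1 library the log2 fold change ranged from -0.10 to 1.93 for Gfap, -0.92 to 0.56 for Aqp4, -0.86 to 1.03 for Aldoc, -0.45 to 1.12 for S100b, -0.51 to 0.38 for Ntsr2, -0.94 to 0.26 for Mfge8, -0.17 to 0.54 for Fabp7, -0.59 to 0.10 for Nes, -0.15 to 0.70 for Ptn, -0.85 to 0.36 for Emx2, -1.08 to 0.0096 for Cd44 and -0.085 to 0.25 for Nfic. The cause of these changes was not tested. DESeq2 moved the median of all genes to 0.12 and the fit with no filter to 0.10, from 0.01. Depth limited Gjb6, which had at most 4 counts in a library.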
